A study of Rattus norvegicus with 6 samples.

Results

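The genes described here belong to prostaglandin, adenosine and cyclic AMP signalling, and were measured in cultures of fetal rat lung epithelial cells. They were chosen by name, and comprise the prostaglandin enzymes Ptgs1, Ptgs2, Ptges and Hpgd, the receptors Ptger4 and Adora2b, the phosphodiesterases Pde4b and Pde4d, and Pthlh. Of these 9 genes, 8 had a probe set on the array under their own symbol in the annotation used here, with 12 probe sets in all, out of 15866 probe sets that are not array controls. Pthlh, which encodes parathyroid hormone related protein, was not analysed here. A probe set is a group of short probes that together give 1 signal for a transcript.

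Type II epithelial cells were isolated from fetal lungs of rats at embryonic day 19, grown in serum-free medium on flexible silastic membranes coated with collagen 1, and kept for 16 h either unstretched (control) or under strain. Strain was 5% cyclic stretch at 60 cycles/min for 15 min of each hour and 2.5% continuous distension for the other 45 min. There were 3 control and 3 strained cultures, in 3 pairs that each came from another litter, and each culture was hybridised to 1 Affymetrix rat E230A array. All labels except that of control 1 give the rats as CD and the fetuses as male and female, and no group carries a genetic change. The model is a culture of freshly isolated cells on a synthetic membrane, outside the tissue and fluid of the lung. Markers of other cell types were present in it, as given below.

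Prostaglandins are made from arachidonic acid by the cyclooxygenases PTGS1 and PTGS2, and prostaglandin E synthase then turns their product into prostaglandin E. That lipid acts on receptors such as PTGER4, which, like the adenosine receptor ADORA2B, couples to the stimulatory G protein and raises cyclic AMP. Cyclic AMP is broken down by phosphodiesterases of the PDE4 family, and prostaglandin E is inactivated by the dehydrogenase HPGD. In the fetal lung, cyclic AMP is known to stimulate surfactant production and to act on fluid transport across the epithelium.

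Strain changed none of the 12 probe sets past the test's threshold. Ptgs1, Ptges, Adora2b and 1 probe set of Pde4d had signals bright enough to be tested, and their differences between strained and control cells were small. The estimates lay between -0.17 and 0.34 on the log2 scale, and the 95% intervals between 0.665-fold and 1.76-fold. Ptgs2, Ptger4, Hpgd, Pde4b and the other Pde4d probe set were dim on average, so their differences are poorly known. The test was limma's linear model on log2(signal + 16) with pair as a block, which understates differences of dim probe sets. A probe set was called at a Benjamini-Hochberg adjusted p under 0.05. In the whole series 31 of 9519 tested probe sets were called, a share of 0.326%. Of the 5 tested probe sets described here 0 were called, and 0 had an unadjusted p under 0.05, against 9.44% of all tested probe sets. "Dim" marks the probe sets among the 40% with the lowest mean, below a signal of about 115.5. The mean was taken over log2 values, so a probe set with uneven signals can be dim with a somewhat higher mean signal. For these the p-values come from the same fit without that filter, in which 0.0315% of all probe sets were called. There 0 of the 12 were called, and 1 had an unadjusted p under 0.05, against 7.49% of all probe sets.

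The letters upstream of these genes are shown because CREB, the transcription factor activated by cyclic AMP, binds the element TGACGTCA, and some of its targets carry only the core TGACG. Windows of 300 bases, from 250 before to 50 after a transcript start, were taken from RefSeq on the GRCr8 assembly. They cover 8 of the 9 genes with 13 windows. TGACG was searched on both strands, where it also forms part of the longer element, and is in capitals below. It occurred in 3 of the 13 windows (23.1%), 1 of Hpgd and 2 of Pde4d, against 21.2% of 33469 windows of all genes. The full element TGACGTCA occurred in 0 of the 13, against 1.83% of all windows. The first match lay at position -136 from the start in Hpgd, and at -231 and -19 in the windows of Pde4d. The window of Ptgs2, the inducible cyclooxygenase, held neither sequence and is shown beside them.
Hpgd, chr16:39034782-39035081, minus strand: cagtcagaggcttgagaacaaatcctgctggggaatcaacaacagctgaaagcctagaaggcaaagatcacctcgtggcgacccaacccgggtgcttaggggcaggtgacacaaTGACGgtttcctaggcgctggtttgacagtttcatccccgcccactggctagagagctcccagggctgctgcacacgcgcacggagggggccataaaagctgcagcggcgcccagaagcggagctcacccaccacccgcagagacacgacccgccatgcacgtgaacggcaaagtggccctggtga
Pde4d, chr2:42592499-42592798, plus strand: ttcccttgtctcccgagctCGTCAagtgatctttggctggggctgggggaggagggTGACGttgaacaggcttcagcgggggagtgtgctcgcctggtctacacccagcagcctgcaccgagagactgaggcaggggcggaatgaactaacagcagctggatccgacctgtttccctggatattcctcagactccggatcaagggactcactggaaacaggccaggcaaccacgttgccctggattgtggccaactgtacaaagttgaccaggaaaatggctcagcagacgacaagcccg
Pde4d, chr2:42767367-42767666, plus strand: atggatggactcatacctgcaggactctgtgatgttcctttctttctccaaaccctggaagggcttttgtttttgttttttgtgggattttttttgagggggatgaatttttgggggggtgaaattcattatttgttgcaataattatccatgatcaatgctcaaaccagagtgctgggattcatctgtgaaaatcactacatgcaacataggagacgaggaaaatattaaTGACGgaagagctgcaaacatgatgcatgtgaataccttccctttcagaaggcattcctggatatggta
Ptgs2, chr13:64713813-64714112, plus strand: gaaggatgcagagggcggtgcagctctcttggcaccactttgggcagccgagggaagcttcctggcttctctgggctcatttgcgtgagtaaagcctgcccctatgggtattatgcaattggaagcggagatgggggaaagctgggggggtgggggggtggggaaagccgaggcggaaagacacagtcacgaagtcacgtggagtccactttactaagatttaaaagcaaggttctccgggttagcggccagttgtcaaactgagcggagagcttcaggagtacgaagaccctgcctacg
A match to these letters is a description of the window and was not tied to any measurement here.

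**Figure D1:**
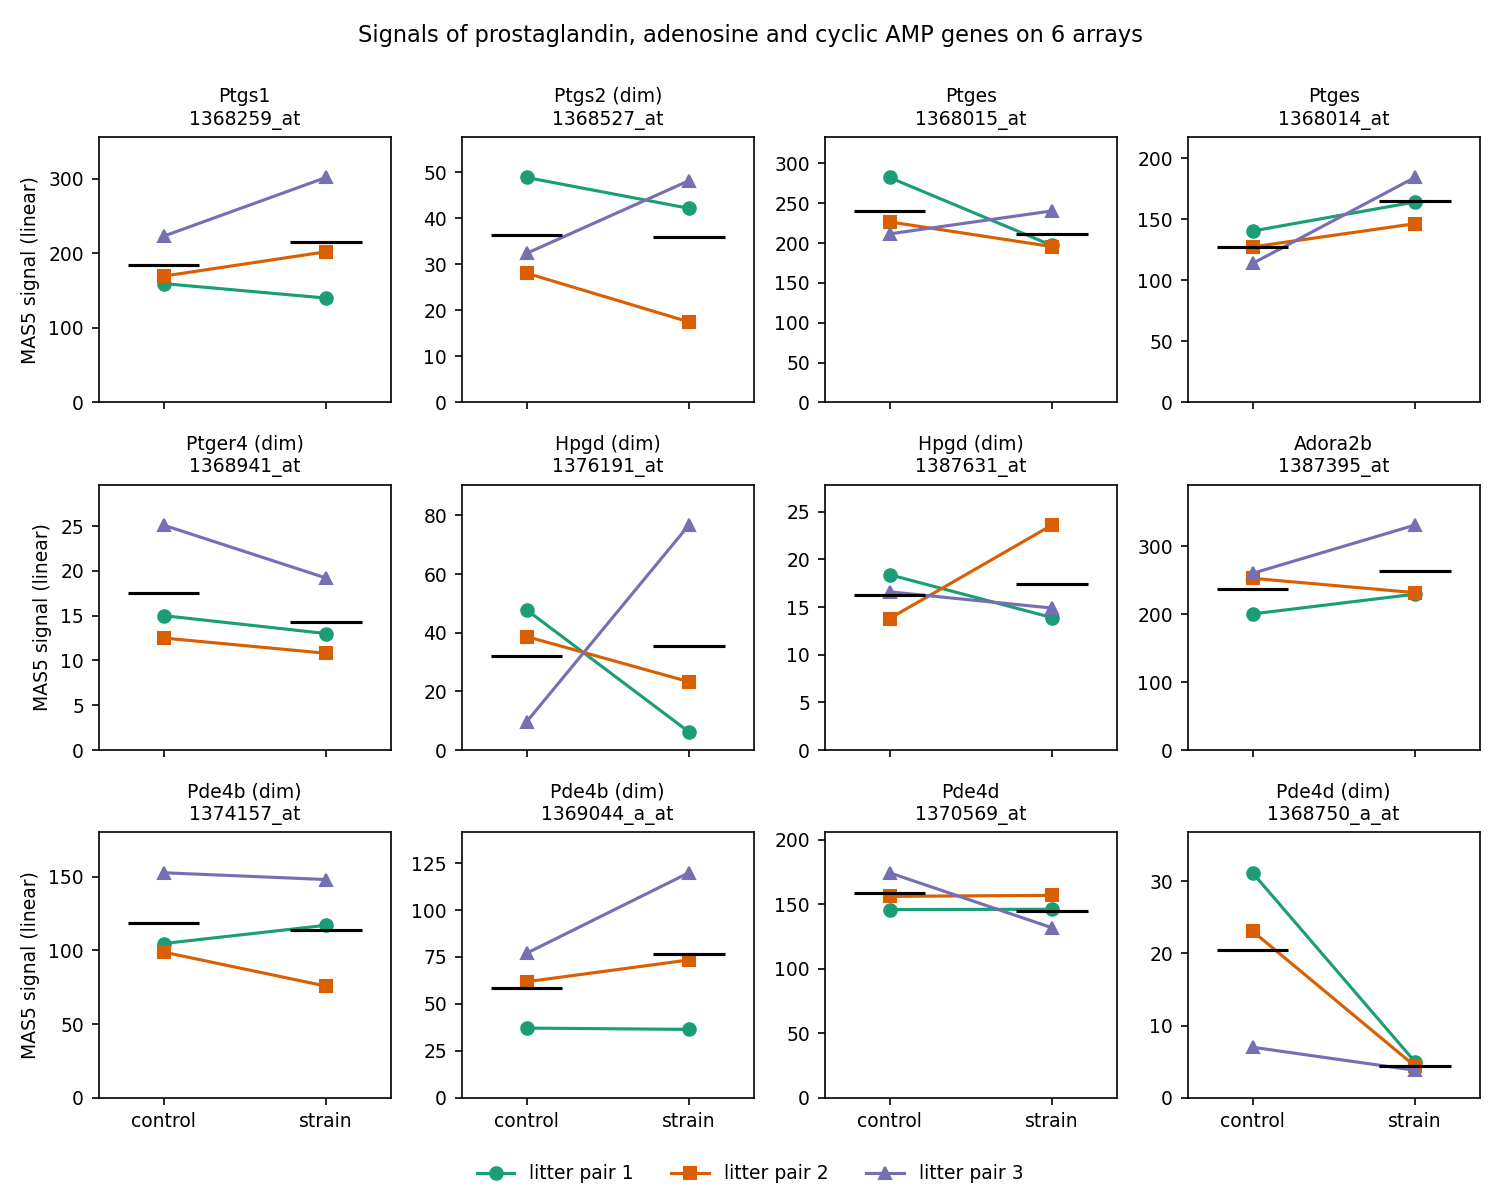
Signal of each of the 12 probe sets (vertical axis, linear MAS5 signal from 0) on the control and the strained array of each litter pair; each line joins the 2 cultures of 1 litter and black bars are group means. The groups are apart only for Ptges on 1368014_at, where strained signals are higher, and for the dim Pde4d probe set, where they are lower.

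Ptgs1 encodes the cyclooxygenase that most tissues make constantly. Its signals (probe set 1368259_at) were 159.2, 169.2 and 222.7 in control cultures 1 to 3 and 139.8, 201.8 and 301.4 in the strained cultures of the same litters. The groups overlapped, and the highest signal of each group came from litter 3. The log2 difference between strained and control cells was 0.16 ± 0.20 (SE, n = 3 pairs), with pair values of -0.17, 0.23 and 0.41 (limma adjusted p = 0.88). The 95% interval ran from 0.826-fold to 1.51-fold.

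Ptgs2 encodes the cyclooxygenase that cytokines, growth factors and mechanical stimuli are known to induce in many cells. On 1368527_at it gave signals of 48.9, 28.1 and 32.4 in control cells and 42.2, 17.5 and 48.2 in strained cells, all of them dim. Only 17.8% of probe sets had a mean at or below that of Ptgs2. The strained culture was lower in pairs 1 and 2 and higher in pair 3, and the groups overlapped. The log2 difference was -0.05 ± 0.29 (SE, n = 3 pairs; limma adjusted p = 0.987), and its 95% interval reached from 0.607-fold to 1.54-fold. That interval is for signal + 16, and its width depends on the added constant. The difference was -0.10 ± 0.47 with 1 added and -0.015 ± 0.13 with 64. The sign of the difference turned when pair 1 or pair 2 was left out, with values of 0.0050 and 0.12. No induction of Ptgs2 was thus seen after 16 h, and a small one would not be detectable at this signal. The highest strained signal was 48.2, against 48.9 in control cells.

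Ptges encodes the prostaglandin E synthase that works together with the inducible cyclooxygenase, and it had 2 probe sets built on the same transcript. On 1368014_at the control signals were 140.5, 127.5 and 113.9, and the strained signals were 164.3, 146.5 and 184.4. All strained signals lay above all control signals here, which held for 2.86% of tested probe sets, and strain was higher in all 3 pairs, as for 13.7%. The log2 difference was 0.34 ± 0.22 (SE, n = 3 pairs), with pair values of 0.20, 0.18 and 0.62, and did not pass (limma adjusted p = 0.708). On the brighter 1368015_at the control signals were 282.3, 226.6 and 211.5, and the strained signals were 197.0, 195.6 and 240.3. Strain was lower in pairs 1 and 2 and higher in pair 3, with overlapping groups. That probe set gave -0.17 ± 0.19 (limma adjusted p = 0.862), so the pair of probe sets disagreed in sign, within intervals that overlap.

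Hpgd encodes the dehydrogenase that takes the first step in breaking down prostaglandin E. Both of its probe sets were dim. On 1376191_at the control signals were 47.8, 38.7 and 9.6 and the strained signals 6.2, 23.3 and 76.7. The pairs went in opposite directions, with log2 differences of -1.52, -0.48 and 1.86. This gave the widest error of the 12 probe sets, at -0.05 ± 0.58 (SE, n = 3 pairs; limma adjusted p = 0.995), and the estimate ran from -1.0 to 0.69 as pairs were left out. On 1387631_at the signals were 18.4, 13.8 and 16.6 in control cells and 13.9, 23.6 and 14.9 in strained cells, with a log2 difference of 0.04 ± 0.25 (limma adjusted p = 0.986). Neither probe set separated the groups.

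Adora2b encodes a low-affinity adenosine receptor that responds when extracellular adenosine is high. Its probe set 1387395_at was of middling brightness, with 57.5% of probe sets at or below its mean. Control signals were 200.6, 253.1 and 260.4, and strained signals were 229.7, 232.0 and 331.5. The groups overlapped, with strain higher in pairs 1 and 3 and lower in pair 2. The log2 difference was 0.13 ± 0.18 (SE, n = 3 pairs; limma adjusted p = 0.889), and its 95% interval ended at 0.839-fold and 1.43-fold.

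Ptger4 encodes a prostaglandin E receptor that raises cyclic AMP. Its signals on 1368941_at were dim, at 15.0, 12.5 and 25.1 in control cells and 13.0, 10.8 and 19.2 in strained cells. Strain was lower in all 3 pairs, as for 15.2% of all probe sets without the filter, but the groups overlapped. The log2 difference was -0.14 ± 0.23 (SE, n = 3 pairs; limma adjusted p = 0.946). Such dim signals do not show whether the receptor was expressed.

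Pde4d encodes a phosphodiesterase that degrades cyclic AMP, and its transcripts start at several sites. On the probe set 1368750_a_at the signals were 31.2, 23.1 and 7.0 in control cells and 5.0, 4.4 and 3.8 in strained cells. All strained signals lay below all control signals, as for 3.54% of all probe sets without the filter, and the strained over control ratio was 0.16, 0.19 and 0.543 in pairs 1 to 3. The log2 difference was -0.77 ± 0.26 (SE, n = 3 pairs), with an unadjusted p of 0.0198 and an adjusted p of 0.567 in limma. This is the largest fitted difference of the 12, on a very dim probe set, since only 5.21% of probe sets had a mean at or below it. Its size depends on the constant added before the logarithm, from -1.77 with 1 to -0.29 with 64. The brighter probe set, 1370569_at, gave 145.8, 156.0 and 174.3 in control cells and 146.0, 156.8 and 131.7 in strained cells. The pair differences there were 0.0020, 0.0070 and -0.37, and the log2 difference was -0.12 ± 0.21 (limma adjusted p = 0.911). Strained and control cells of litters 1 and 2 were nearly equal on it, and pair 3 alone set the estimate, which was 0.0040 without it.

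Pde4b encodes a related phosphodiesterase that cyclic AMP itself is known to induce. On 1374157_at, which lay just below the limit for dim probe sets by its mean log2 value, control signals were 104.7, 98.9 and 152.8 and strained signals 117.1, 75.8 and 148.2. The log2 difference was -0.07 ± 0.25 (SE, n = 3 pairs; limma adjusted p = 0.981). On 1369044_a_at control signals were 37.1, 61.8 and 77.0 and strained signals 36.4, 73.4 and 119.9, with a log2 difference of 0.24 ± 0.28 (limma adjusted p = 0.923). The probe sets differed in sign and both had overlapping groups, while litter 3 gave the highest signal of each group on both.

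**Figure D2:**
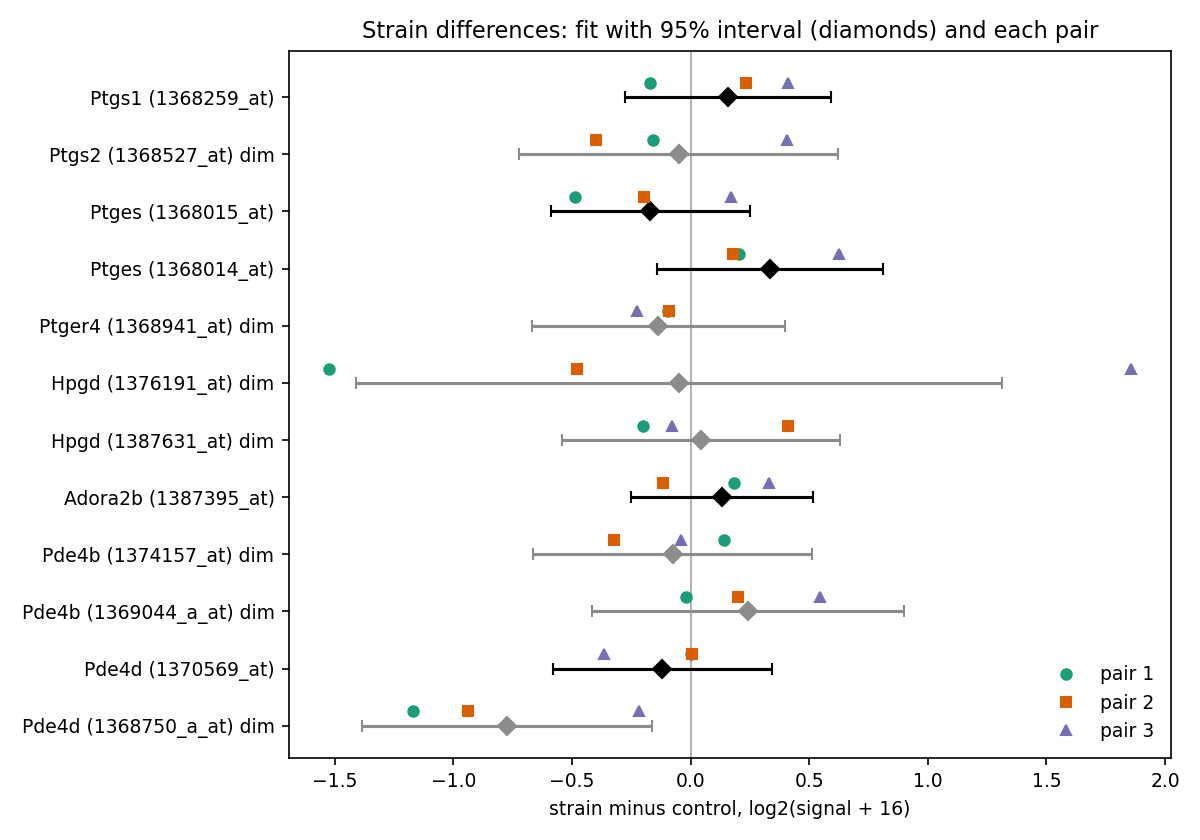
Difference of strained minus control cells in log2(signal + 16) (horizontal axis) for each probe set; diamonds and bars are the fitted difference and its 95% interval (grey for dim probe sets) and coloured points are the 3 litter pairs. All intervals include 0 except that of the dim Pde4d probe set, which ran from -1.39 to -0.16 before any adjustment for the number of probe sets.

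Levels also varied between litters. The limma F test of the litter pair, with strain or control as the other term, called 1550 of 9519 tested probe sets, or 16.3%, and 0 of the 5 tested probe sets described here. At an unadjusted p under 0.05 the share was 35.6% of all, and Ptgs1 was the only tested one of these genes below it (unadjusted p = 0.0328, adjusted p = 0.11). Its control signal was 222.7 in litter 3, against 159.2 in litter 1. Among the dim probe sets, Pde4b on 1369044_a_at had an unadjusted p of 0.0405 (adjusted p = 0.198), with signals of 37.1 and 36.4 in litter 1 against 77.0 and 119.9 in litter 3. Litter 1 was run on another day than litters 2 and 3, and litter 3 on another chip lot than litters 1 and 2. Litter, run day and chip lot cannot be told apart here. The run files also give a fluidics module for each array. Control arrays 1 to 3 were run on modules 1, 1 and 3, and strained arrays 1 to 3 on modules 2, 2 and 4. No module held both groups, so strain and module cannot be told apart either.

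The wider pathway was described with 9 lists that hold 119 genes. Of these, 103 had a probe set and 58 were bright enough to be tested, each by its brightest probe set. None of the 58 was called by limma (lowest adjusted p = 0.397). At an unadjusted p under 0.05 there were 2, or 3.45%, against 9.44% of all tested probe sets. The median log2 difference was -0.0040 over the 58, beside -0.02 over all tested probe sets, with 28 above and 30 below 0.

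Prostanoid synthesis enzymes had 8 of 13 genes tested, 0 called, and a median log2 difference of 0.11. Beside Ptgs1 and Ptges they included Ptges2 and Ptges3, further prostaglandin E synthases, at 0.27 ± 0.19 and 0.14 ± 0.10, and the thromboxane synthase gene Tbxas1 at 0.13 ± 0.15 (SE, n = 3 pairs). Pla2g6, a phospholipase that can release arachidonic acid, tied with Tbxas1 in p and was at -0.13 ± 0.14, lower in all 3 pairs, with -0.25 ± 0.17 and -0.19 ± 0.23 on its other probe sets. It was the 1 gene of this list that differed between litters in the F test (adjusted p = 0.00671). The strained signal of Ptges2 was 905.2 in litter 1, against 513.6 in its control, and lower than the control in litter 3. Pla2g4a, the phospholipase that releases arachidonic acid, was dim. Of breakdown and transport genes 2 of 6 were tested and 0 were called. The prostaglandin transporter gene Slco2a1 had control signals of 846.8, 806.3 and 867.1 and strained signals of 746.3, 722.2 and 792.9. On this probe set, 1372889_at, its groups did not overlap, as for 3.21% of tested probe sets in this direction. The log2 difference was -0.15 ± 0.12 (limma adjusted p = 0.769). On its other tested probe set, 1387492_at, the groups overlapped, at -0.20 ± 0.18, and strain was higher in pair 3. The carbonyl reductase gene Cbr1 was at -0.04 ± 0.10. Of 9 prostanoid receptor genes 2 were tested and 0 were called, Ptger1 at 0.09 ± 0.24 and Ptger3 at 0.06 ± 0.21. Ptger2, the other prostaglandin E receptor that raises cyclic AMP, was dim, with a mean signal of 16.0.

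Adenosine genes had 6 of 14 tested, 0 called, and a median log2 difference of 0.03. The adenosine kinase gene Adk was at -0.19 ± 0.13, the nucleoside transporter gene Slc29a2 at -0.26 ± 0.20 and the ATP-degrading ectoenzyme gene Entpd2 at 0.16 ± 0.19 (SE, n = 3 pairs). Adora1, Adora2a and Nt5e, the ectoenzyme that makes adenosine from AMP, were dim. Of 18 genes for G proteins, adenylyl cyclases, adrenergic receptors and arrestins, 7 were tested and 0 were called. The cyclase genes Adcy2 and Adcy3 were at -0.29 ± 0.17 and 0.28 ± 0.19, and Arrb2, which encodes an arrestin that silences receptors, was at -0.37 ± 0.20 and lower in all 3 pairs. Phosphodiesterases had 5 of 15 tested and 0 called. Beside Pde4d they included Pde10a and Pde2a at 0.11 ± 0.23 and 0.10 ± 0.27, and no tested gene of this list went beyond -0.12 or 0.11.

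Of protein kinase A subunits, anchoring proteins and other cyclic AMP effectors, 12 of 15 genes were tested and 0 were called, with a median log2 difference of 0.04. At an unadjusted p under 0.05 there was 1 of the 12 (8.33%). Prkar1a encodes a regulatory subunit of protein kinase A. On 1386905_at its signals were 2420.1, 2455.6 and 1777.1 in control cells and 3036.6, 2799.4 and 2173.6 in strained cells. Strain was higher in all 3 pairs, the groups overlapped, with litter 3 lowest in each, and the log2 difference was 0.27 ± 0.10 (SE, n = 3 pairs; unadjusted p = 0.0203, limma adjusted p = 0.404). Its other probe sets, 1373951_at and 1388375_at, were about as bright and gave -0.0010 ± 0.10 and 0.01 ± 0.10, so the probe sets of Prkar1a disagreed. The anchoring protein gene Akap12 was at -0.53 ± 0.26, with 0.04 ± 0.27 on a dim probe set, and Pkib, which encodes a kinase A inhibitor, at 0.42 ± 0.25.

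Of CREB family, coactivator and target genes 13 of 22 were tested and 0 were called, with a median log2 difference of -0.11, and 1 had an unadjusted p under 0.05 (7.69%). Per1, a clock gene with a cyclic AMP response element, had control signals of 275.5, 232.7 and 273.4 and strained signals of 89.0, 325.4 and 51.8. It was lower in pairs 1 and 3 and higher in pair 2, at -1.04 ± 0.38 (SE, n = 3 pairs; unadjusted p = 0.0193, limma adjusted p = 0.397). Without pair 2 it was the 1 listed gene called, at -1.78 ± 0.35 (limma adjusted p = 0.0293). In that setting 9 of 9519 probe sets were called. Leaving out the only pair in which Per1 rose favours such a call, so no conclusion is drawn from it. Dusp1, a MAP kinase phosphatase, was at 0.25 ± 0.12 and the growth factor gene Areg at 0.18 ± 0.11. Creb1, Crem, Fos and Nr4a2 were dim. Crem encodes a CREB relative that cyclic AMP is known to induce, and its fitted differences were negative on all 3 probe sets. On 1369737_at its signals were 27.4, 30.1 and 31.6 in control cells and 2.0, 8.5 and 21.7 in strained cells, with the strained ones all below the controls. The log2 difference there was -0.84 ± 0.27 (unadjusted p = 0.017, limma adjusted p = 0.556). The others gave -1.13 ± 0.49 and -0.71 ± 0.30 (limma adjusted p of 0.672 and 0.663), the first of them higher under strain in pair 1. The cyclase gene Adcy5 was also dim on both its probe sets, at 0.81 ± 0.26 on 1368298_at (unadjusted p = 0.0173, limma adjusted p = 0.557) and -0.13 ± 0.21 on the other. Further dim probe sets had an unadjusted limma p under 0.05. Ptgis, of the prostanoid synthesis list, was at 1.02 ± 0.38, with pair values of 1.32, 1.74 and 0.003. Sik1 on 1368597_at was at -1.12 ± 0.41, against 0.20 ± 0.15 on its brighter probe set. Gnai1 was at 0.68 ± 0.28. Crebbp on 1387619_at was at 0.69 ± 0.27, against 0.17 ± 0.17 on its brighter probe set. Over all 153 probe sets of the listed genes, dim ones included, 0 were called in the limma fit without the filter, and 9 had an unadjusted p under 0.05 (5.88%), against 7.49% of all probe sets. Around parathyroid hormone related protein, its receptor gene Pth1r was at 0.13 ± 0.17 (-0.13 ± 0.31 on a dim probe set), the lipid droplet gene Plin2 at -0.0030 ± 0.16 and the adipogenic factor gene Pparg at -0.13 ± 0.23, with 0 of the 3 tested genes called.

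**Figure D3:**
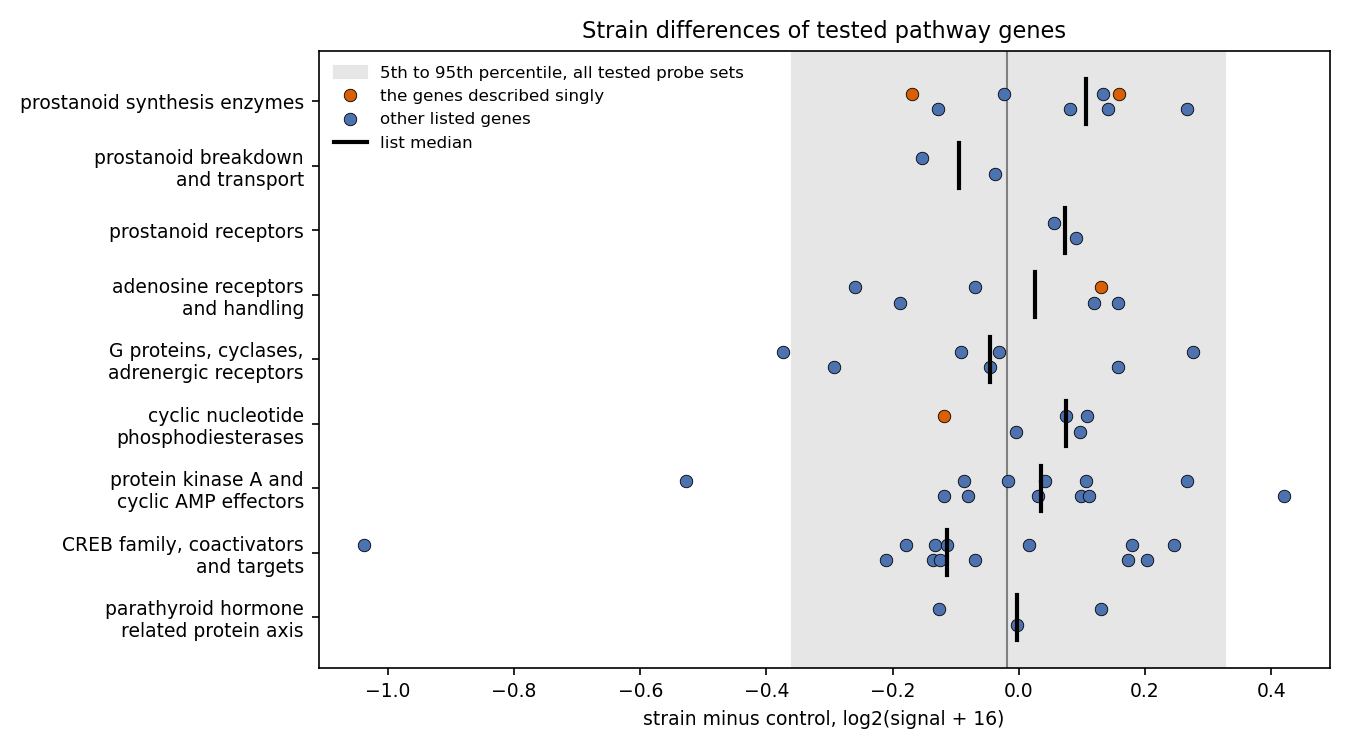
Difference of strained minus control cells in log2(signal + 16) (horizontal axis) for the tested genes of each of 9 pathway lists, 1 point a gene by its brightest probe set; the black bar is the list median, the grey line the median of all tested probe sets and the grey band their 5th to 95th percentile, -0.36 to 0.33. Most points lie in the band, and Per1 at -1.04 lies farthest out.

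Over the 6 arrays the log2 signal of Ptgs2 was most like those of Ntn1 (Pearson r = 0.993), Ppp1r2 (r = 0.984) and Npffr1 (r = 0.977), among 8153 tested probe sets with 1 symbol. With 6 arrays from 3 litters, 89 of these probe sets had an r over 0.9, and Ptgs2 itself was dim, so this is a description only.

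Each array had a median signal between 161.7 and 199.0, and precision is limited by there being 6 arrays. The brightest epithelial markers had mean signals of 11860 for Epcam, 7143 for Krt8 and 7060 for Cdh1, and 11 of 12 passed the filter. The 11 had a median log2 difference of -0.11. Sftpc was at 0.57 ± 0.12 and higher in all 3 pairs (limma adjusted p = 0.12). Slc34a2 was at -0.77 ± 0.20 and lower in all 3 pairs (limma adjusted p = 0.221). Sftpb, Sftpd and Abca3 were at -0.23 ± 0.16, -0.195 ± 0.11 and -0.16 ± 0.12, and Sftpa1 was dim. Genes used as markers of other cells gave signals as well. Whether the epithelial cells also expressed them was not tested. The summed signal of 8 smooth muscle markers, led by Tagln and Acta2, was 21070, 25450 and 21270 in control cultures 1 to 3. In the strained cultures of the same litters it was 15590, 23370 and 19310, lower in all 3 pairs. Most of this sum was Tagln, at a mean of 13370 and a log2 difference of -0.09 ± 0.07. The 7 tested smooth muscle markers had a median log2 difference of -0.40. The other one, Myh11, was dim at a mean of 97.7. It was at 0.23 ± 0.30, higher under strain in pairs 1 and 2 and lower in pair 3. Among 9 leukocyte markers Lyz2 was the brightest, at a mean of 1066. Their sum lay between 2815.9 and 3492.5 in control and 2072.4 and 3673.3 in strained cultures. It was lower under strain in pairs 1 and 2 and higher in pair 3, and the 7 tested ones had a median of -0.29. For 9 fibroblast markers the sums were 22388.4 to 24247.4 and 22392.3 to 22662.0, mostly the signal of Fn1, which was at -0.06 ± 0.06. The 5 tested fibroblast markers had a median log2 difference of -0.28. Col1a2, Col3a1 and Vim were each lower in all 3 pairs, at -0.61 ± 0.15, -0.32 ± 0.15 and -0.28 ± 0.12, while Col1a1 was at 0.18 ± 0.09. Pdgfra, Dcn, Lum and Tcf21, which define fibroblasts more narrowly, were dim. The mesothelial markers gave 398.0 to 612.8 and 466.1 to 602.6, with Msln the brighter. The 5 endothelial markers were all dim, Pecam1 among them at a mean of 25.9. The leukocyte markers Ptprc and Cd53 were dim as well, at 27.1 and 108.2. None of the markers was called, Acta2 coming nearest at -0.66 ± 0.12 (SE, n = 3 pairs; limma adjusted p = 0.0506), and the part of these cells in the signals above was not tested. In such bulk RNA, fewer cells of a type and less RNA per cell cannot be told apart.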

How the data were processed

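RNA from 6 cultures, 3 control and 3 strained, was hybridised to 1 array each. The deposited values are intensities per probe set on a linear scale (MAS5, 5.0, per the submitters' processing notes), which the authors had scaled to a trimmed mean of about 500. The labels state a column clean-up of the RNA, while the text in all 6 run files says that no RNeasy column was used; the step meant is not given in the sources used here. Signals were rescaled to a 2% trimmed mean of 500 and transformed as log2(signal + 16). After removal of 57 control probe sets, the 40% with the lowest mean were set aside as dim, leaving 9519. limma 3.58.1 in R 4.3.3 fitted litter pair and group with an intensity trend, with Benjamini-Hochberg adjustment over all tested probe sets. Errors rest on 2 residual and 9 borrowed degrees of freedom, or 5.3 borrowed for dim probe sets in the fit without the filter, so a probe set's own spread between pairs enters only in part. With 3 pairs an exact two-sided sign-flip test cannot go below 0.25 and was not run.

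The pairs come from the design text. Deviations of same-numbered arrays correlated at 0.51, 0.475 and 0.435, other combinations between -0.35 and -0.117; shared run day and chip lot could also give this. No array repeated another (correlations 0.955 to 0.976). Symbols are the platform annotation's. All probe sets of the genes are named; of each list, called genes and up to 3 with the smallest p and ties; of each marker list, up to 3 of the brightest. Listed genes given as dim, and fibroblast, epithelial, smooth muscle and leukocyte markers beyond the brightest, were named after their values were seen. The genes and lists were chosen with earlier results of these data known. Scripts were tested on simulated data. Alternatives were the block, left-out pairs, run day, added constant, filter, normalization and variance model.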

Additional observations from a re-analysis of the deposited data

How the results depend on the processing

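The count of 0 called probe sets among these genes was the same under all settings run, for strain and for litter. With a filter of 60% none of these probe sets was tested, so the 0 of that setting carries no information. The main setting tested 5 of the 12. Over the whole series the count of strain calls moved from 31 to 0 with no replicate block (200 at an unadjusted p under 0.05), to 1 with run day as the block, to 5 without the filter and to 1 without the variance trend, and lay between 9 and 52 as pairs were left out. The other settings left it within 1.5 times. The count of called genes of the wider lists was 0 to 1 as pairs were left out and 0 in the other settings run. Litter calls went from 1550 to 289 without the filter and to 0 without the variance trend (2911 at an unadjusted p under 0.05), and ranged from 868 to 1273 with a pair left out.

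Of 144 alternative values for the 12 probe sets, 136 kept their sign and none passed (lowest adjusted p = 0.317). Many of the 136 had to keep it, since the block, filter and variance settings leave the estimate unchanged in this balanced design. The sign could turn only with a pair left out, another added constant or another normalization. The sign of the dim Hpgd probe set 1376191_at turned to 0.01 with 64 added before the logarithm. The 7 other turns came with a pair left out. Values then ranged from -0.28 to 0.12 for Ptgs2, from -1.0 to 0.69 for Hpgd on 1376191_at and from -0.14 to 0.17 for Hpgd on 1387631_at. They ranged from -0.18 to 0.051 for Pde4b on 1374157_at and from -0.18 to 0.0040 for Pde4d on 1370569_at. The causes were not tested. No normalization moved the median of all tested probe sets by more than 0.1. Low signal limits what can be said of Ptgs2, Ptger4, Hpgd and Pde4b.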
